A study of Bos indicus with 11 samples.

Results

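The genes described here encode the heat shock proteins and the J-domain (DNAJ) proteins, the main families of molecular chaperones. They were chosen by symbol alone, as every row of the deposited gene table whose symbol names an HSPA, HSPB, HSPD, HSPE, HSPH or HSP90 protein or a DNAJA, DNAJB or DNAJC protein. The rule matched 66 of 24616 rows, and 61 of these had a mean of at least 5 normalized counts over the 11 cows, the level from which genes were tested. The 61 rows hold 60 different symbols, because HSP90AB1 is listed under 2 Ensembl identifiers. The 5 rows below that level were DNAJB3 with 1 read over all cows, DNAJB7 with 1, DNAJB8 with 4, HSPB9 with 6 and HSPB3 with 0.

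Endometrial biopsies were collected 6 days after artificial insemination (AI) from healthy multiparous Nelore cows (*Bos indicus*), from the uterine horn opposite the ovary that carried the corpus luteum. Oestrus had been synchronized in all of them, and all had received AI at detected oestrus and had been selected for a narrow range of plasma progesterone. After diagnosis on day 30, 6 cows made up the pregnant (P) group and 5 the non-pregnant (NP) group. Each cow gave 1 library and is named here by its group and its number. The comparison asks whether uterine chaperone transcripts at the time of embryo arrival differ between cows found pregnant or non-pregnant on day 30. Whether the NP cows had conceived is not known here. A biopsy mixes epithelium, stroma, vessels, leukocytes and at times smooth muscle, so for every gene fewer cells of a type and less RNA per cell cannot be told apart.

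Chaperones bind unfolded proteins and help them to fold, to cross membranes or to be degraded. HSP70 proteins (HSPA) do this in cycles of ATP hydrolysis that J-domain proteins start and nucleotide exchange factors end, HSP90 proteins act on nearly folded clients, and small heat shock proteins (HSPB) hold unfolded proteins without using ATP. In the uterus these families are best known for the maturation of the progesterone, oestrogen and glucocorticoid receptors, which HSP70, J-domain proteins, HSP90 and their co-chaperones carry to the state that binds hormone. Some members are made in all cells, while others, such as HSPA1A, HSPH1 and DNAJB1, are induced by heat and other protein-damaging stress through heat shock factor 1.

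Between 9290949 and 13569085 reads had been counted on genes per cow. Cow P617 stood apart: on the first principal component of all genes tested, which held 46.6% of the variance, it lay at 166, P1541 at 59.1 and the other cows between -43.3 and 8.58. P617 also had the lowest summed count of 9 epithelium markers (2317 normalized counts against 10315 to 28007 in the other cows) and the highest of 8 smooth muscle markers. Its GEO labels call it pregnant, whereas a supplement of the study lists it as non-pregnant, and it was kept in the P group. The main results that rest on P617 and P1541 are given with and without them.

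No member passed the adjusted threshold for a difference between the groups. With limma on log2(normalized count + 1), 0 of 61 members passed an adjusted p of 0.1, as did 0% of the 15081 genes tested, among which the smallest adjusted p was 0.147. The study itself, using DESeq2 on these cows, reported genes that differed between the groups at that threshold. DESeq2 was not run here, and the reason for the unlike outcome was not tested. At an unadjusted p under 0.05 there were 2 members, HSPA12B with more in NP cows and HSPB8 with more in P cows. That is 3.28% of the members, below the 7.84% of all genes tested (5.49% with more in NP and 2.35% with more in P). The groups did not overlap for 0 of 61 members, against 1.09% of all genes tested (0.855% with NP above P and 0.239% with P above NP). By the sign of the mean log2 difference, which is what higher and lower in NP or P mean for counts of genes here, 27 members were higher in NP and 34 in P, beside 50.2% and 49.8% of all genes tested, and the median log2 fold change, given throughout as NP over P, was -0.01 beside 0.00182 for all genes tested. An absolute log2 fold change over 0.5 was found for 7 members, which is 11.5% and compares with 20.4% of all genes tested.

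As a set, the members also varied less from cow to cow than all genes tested, which include genes of low level. The members were not compared with genes of similar level, so the part of level in this difference was not tested. Within groups, the SD on the log2 scale had a median of 0.302 over the members and 0.416 over all genes tested, and 19 of 61 members lay above the latter. In 32 members the highest cow had less than 2 times the lowest, which is 52.5% of them against 34.5% of all genes tested, and in 10 it had over 5 times the lowest. The 95% interval of the NP over P difference stayed within a 2-fold change either way for 46 of 61 members (75.4%, against 62.0% of all genes tested) and within a 1.5-fold change for 30 (49.2%, against 36.7%). Together the 61 rows took 1.08 to 1.28% of the normalized counts in P cows and 0.950 to 1.41% in NP cows.

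**Figure D1:**
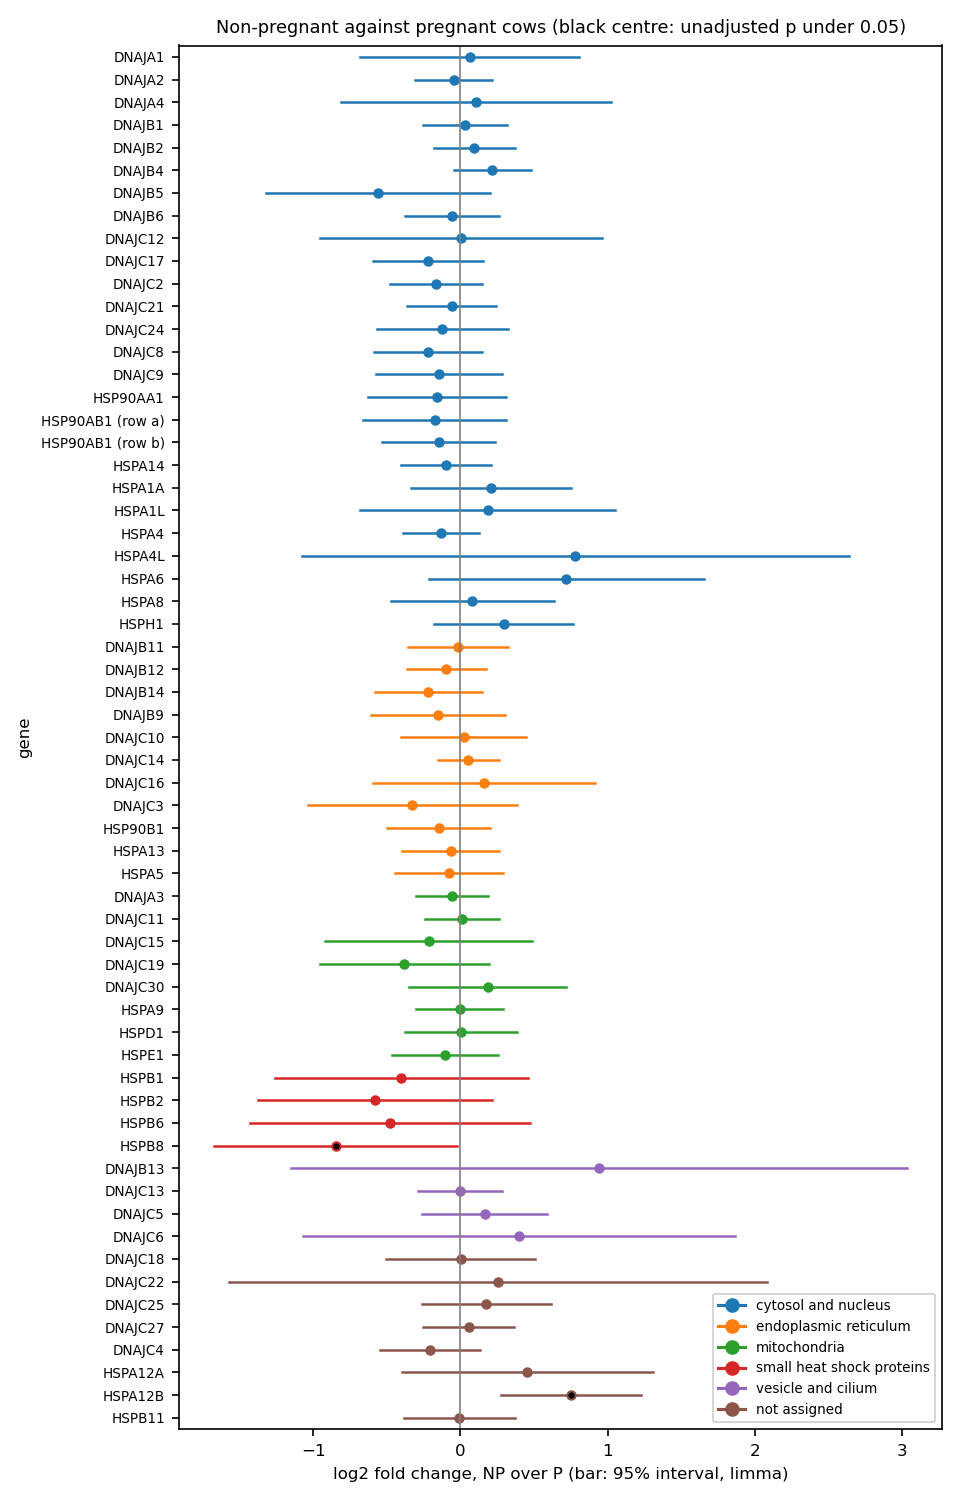
Log2 fold change (NP over P, horizontal axis) with its 95% interval for each of the 61 rows (vertical axis), coloured by compartment, from limma on 6 P and 5 NP cows. Only the intervals of HSPB8 (-1.67 to -0.02) and HSPA12B (0.27 to 1.23) leave out 0, and the widest belong to DNAJB13, HSPA4L and DNAJC22.

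Some cows held the highest or the lowest value of more members than others. P617 was the highest cow in 17 members and the lowest in 15, shares of 27.9% and 24.6% that lie near those over all genes tested (26.0% and 27.8%). NP2810 was the highest cow in 11 members, 18.0% against 10.5% of all genes tested. NP638 was the lowest in 10 members, 16.4% against 4.28% of all genes tested. P2396 and NP238 were each the highest in 8, 13.1% against 11.7% and 10.2% of all genes tested.

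**Figure D2:**
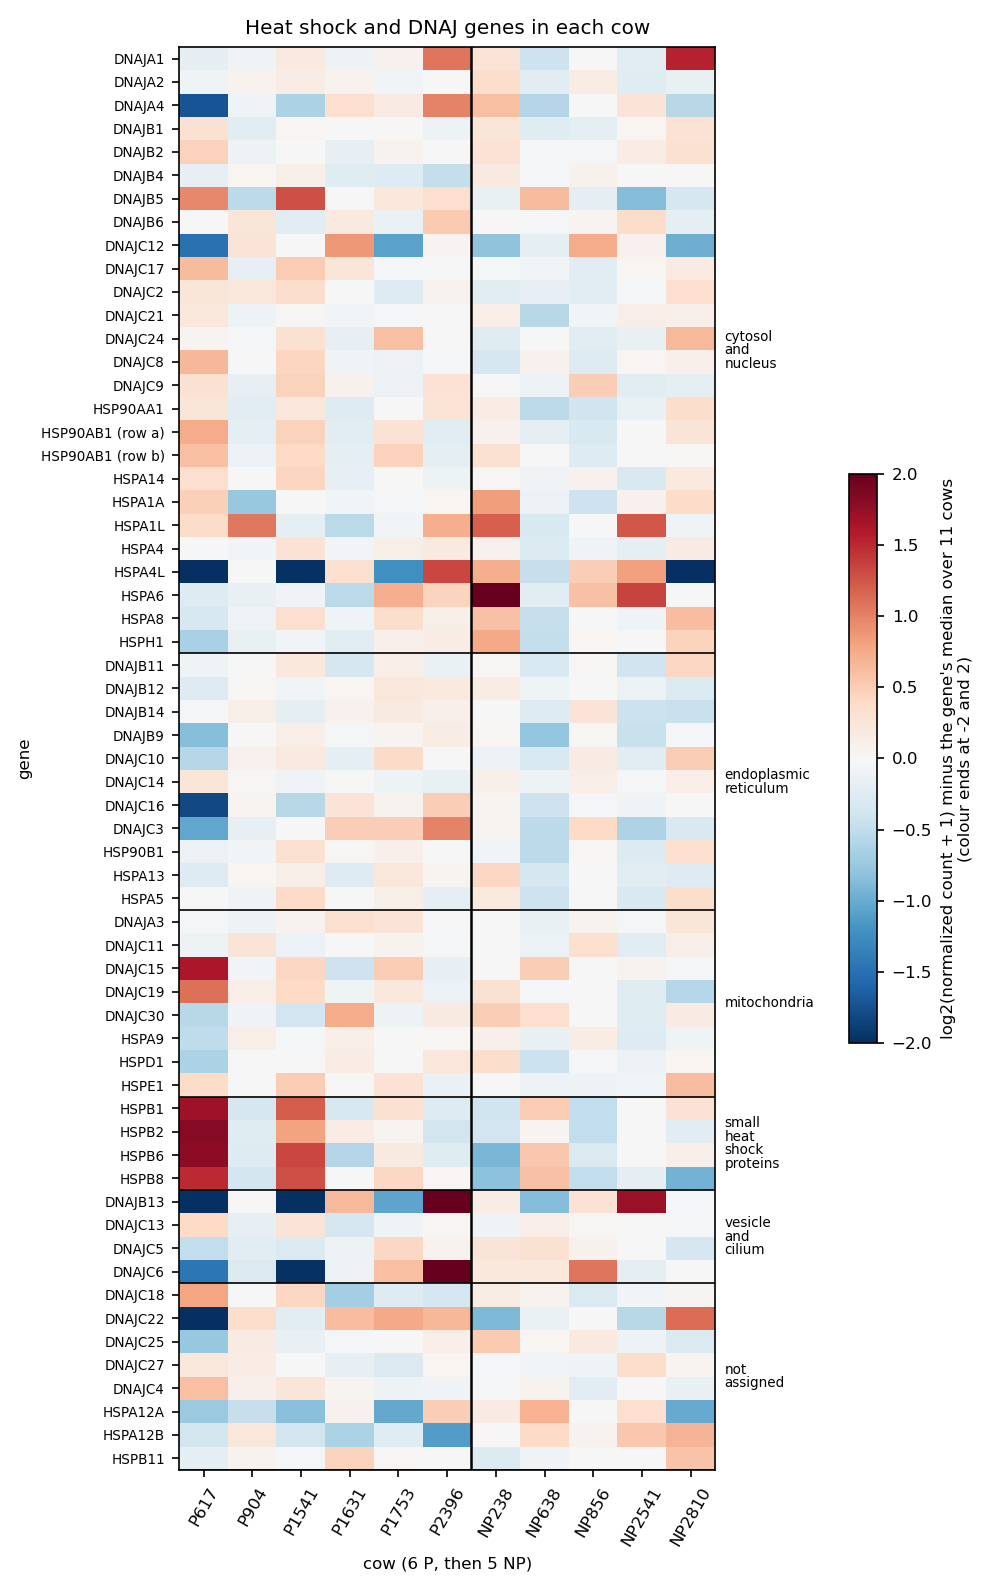
Log2(normalized count + 1) of each of the 61 rows (vertical axis) in each cow (horizontal axis, P cows left of the line) minus the median of the row over the 11 cows, with rows grouped by compartment. The 4 small heat shock genes are highest in P617 and then P1541, and DNAJB13 and DNAJC6 are lowest in the same pair of cows.

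Of the 26 rows of the cytosol and nucleus, 12 were higher in NP and 14 in P, with a median log2 fold change of -0.05 and 0 rows at an unadjusted p under 0.05. They are HSPA1A, HSPA1L, HSPA4, HSPA4L, HSPA6, HSPA8, HSPA14, HSPH1, HSP90AA1, both rows of HSP90AB1, DNAJA1, DNAJA2, DNAJA4, DNAJB1, DNAJB2, DNAJB4, DNAJB5, DNAJB6, DNAJC2, DNAJC8, DNAJC9, DNAJC12, DNAJC17, DNAJC21 and DNAJC24. HSPA8, the constitutive HSP70 of the cytosol, stood at 18653 normalized counts in P617, 22141 in P904, 29542 in P1541, 21937 in P1631, 29924 in P1753 and 25221 in P2396. In the NP cows it was 35168 in NP238, 16943 in NP638, 23363 in NP856, 22208 in NP2541 and 35745 in NP2810. The 2 highest and the lowest cow were thus all NP cows, the groups overlapped, and the log2 fold change was 0.08 (95% interval -0.47 to 0.63).

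The HSP90 proteins of the cytosol leaned to the P side by less than the spread among cows. HSP90AA1, the inducible form, was 20398 ± 3225 normalized counts in P (SD, n = 6) and 18556 ± 4737 in NP (SD, n = 5), a log2 fold change of -0.16 (95% interval -0.63 to 0.31). For HSP90AB1, the constitutive form, the main row was 16468 ± 4884 in P and 14210 ± 2213 in NP, with the highest value in P617 (24101) and the lowest in NP856 (11584). The second HSP90AB1 row held 9.05 to 11.9% of the counts of the pair in every cow, and reads from near-identical copies cannot be assigned to either with certainty. With HSP90B1 of the endoplasmic reticulum, all 4 HSP90 rows were lower in NP than in P (median log2 fold change -0.15), none with a p under 0.05. Without P617 and P1541, 2 of 4 were, and the median was -0.02.

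Of the heat-inducible members, HSPH1, HSPA1A and HSPA6 were all highest in NP238. None of them had a limma p under 0.05 in the fit of all cows by group alone. HSPH1, a nucleotide exchange factor of HSP70, was 4123 normalized counts in NP238 and 3327 in NP2810, while the other NP cows had 1756, 2496 and 2436. The P cows had 1550 in P617, 2192 in P904, 2336 in P1541, 2109 in P1631, 2610 in P1753 and 2688 in P2396. The difference was 0.29 on the log2 scale with a standard error of 0.21 (limma p = 0.198, adjusted p = 0.796, exact permutation p = 0.236). Only without NP638, the lowest NP cow, did HSPH1 and HSPA6 have a limma p under 0.05 (0.0434 and 0.0461).

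HSPA1A, the classical inducible HSP70, was highest in NP238 (10080 normalized counts), then in P617 (7871) and NP2810 (7271), and lowest in P904 (3336). The remaining P cows lay between 5426 and 5785 and the remaining NP cows between 4240 and 5990. Its log2 fold change of 0.21 (95% interval -0.33 to 0.75) was 0.04 without NP238. Reads of other near-identical HSP70 genes may be counted in this row or lost from it. HSPA6, a strictly stress-induced HSP70, had 85.0 normalized counts in NP238 and 53.3 in NP2541, against 17.2 to 31.2 in the other NP cows and 13.7 to 34.2 in the P cows (log2 fold change 0.72, standard error 0.43, exact permutation p = 0.139).

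DNAJB1, the J-domain partner of HSPA1A in the stress response, was steadier. It ranged from 1523 to 2210 normalized counts in P cows and from 1516 to 2185 in NP cows, and its 3 highest values were in P617, NP2810 and NP238. Its log2 fold change was 0.03 (95% interval -0.26 to 0.32). Chosen after its values were seen, DNAJA1, another J-domain partner of cytosolic HSP70, stood at 748 in NP2810 and 545 in P2396 and at 194 to 308 in all other cows.

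**Figure D3:**
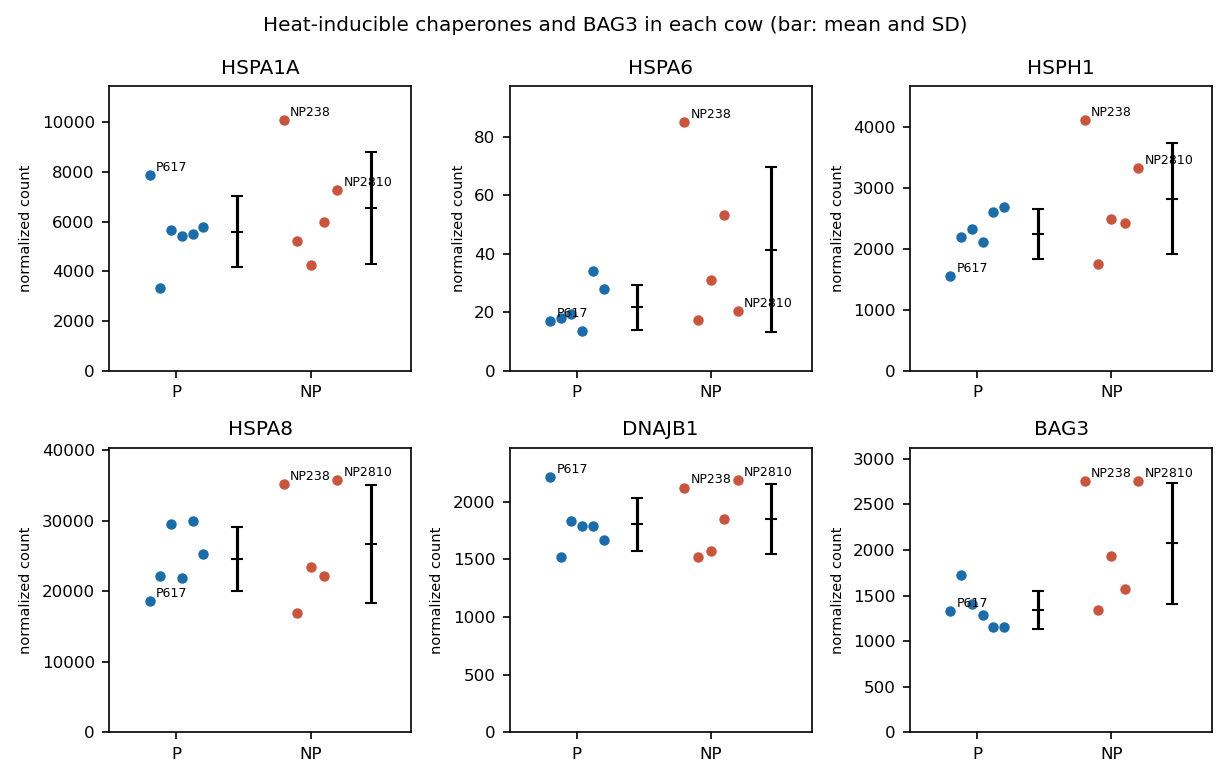
Normalized count (vertical axis, from 0) of 5 chaperones and of the co-chaperone BAG3 in each cow, with the mean and SD of each group (6 P, 5 NP) beside the points and P617, NP238 and NP2810 named. NP238 is the highest cow for HSPA1A (10080), HSPA6 (85.0), HSPH1 (4123) and BAG3 (2759), and NP2810 for HSPA8 (35745).

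HSPA4L, a relative of HSPH1 that is abundant in testis, had the widest range of this compartment. It was 12.4 normalized counts in P617, 177 in P904, 44.5 in P1541, 223 in P1631, 75.5 in P1753 and 449 in P2396. The NP cows had 293, 128, 251, 314 and 41.8 in NP238, NP638, NP856, NP2541 and NP2810. The highest cow thus had 36.1 times the lowest, and both ends were P cows. The group difference of 0.78 on the log2 scale had a 95% interval from -1.08 to 2.64 and became -0.21 without P617 and P1541.

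The endoplasmic reticulum (ER) members fold secreted and membrane proteins and include the targets of the unfolded protein response. Of 11, 3 were higher in NP and 8 in P (HSPA5, HSPA13, HSP90B1, DNAJB9, DNAJB11, DNAJB12, DNAJB14, DNAJC3, DNAJC10, DNAJC14 and DNAJC16; median log2 fold change -0.08), and 0 had a p under 0.05. HSPA5 (BiP), the HSP70 of the ER, was 7155 ± 1018 normalized counts in P and 6866 ± 1511 in NP (95% interval of the log2 fold change -0.44 to 0.29). HSP90B1, the HSP90 of the ER, was 7830 ± 825 in P and 7180 ± 1596 in NP (-0.50 to 0.20). NP638 was the lowest cow for both, at 5187 and 5258. DNAJB14, a J-domain protein of the ER membrane, was 153 ± 14.0 in P and 133 ± 29.6 in NP, with a log2 fold change of -0.22 (-0.58 to 0.15).

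DNAJC3 and DNAJC16 varied most in the ER group, and P617 was the lowest cow for both. DNAJC3, which restrains the kinases that phosphorylate eIF2alpha, was 643 normalized counts in P617, 1174 in P904, 1320 in P1541, 1865 in P1631, 1867 in P1753 and 2614 in P2396. The NP cows had 1378, 922, 1740, 858 and 1070. The 3 highest cows were P cows, the groups overlapped, and the log2 fold change was -0.33 with a standard error of 0.32 (limma adjusted p = 0.843, exact permutation p = 0.381). Without P617 it was -0.56 (limma adjusted p = 0.536), and without P617 and P1541 it was -0.65 (adjusted p = 0.385), both with an unadjusted p under 0.05.

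DNAJC16, a membrane-bound J-domain protein of the ER, was 409 normalized counts in P617 and 970 in P1541, but 1479, 1699, 1492 and 2000 in the other P cows. The NP cows lay between 1067 and 1479, and all of them were below those 4 P cows. With all cows the log2 fold change was 0.16 (95% interval -0.60 to 0.91). Without P617 and P1541 it was -0.31 (limma adjusted p = 0.413, unadjusted p under 0.05) and the groups did not overlap, though P904 exceeded the highest NP cow by less than 1 normalized count. P617 and P1541 had the lowest epithelium marker sums, 2317 and 10315 normalized counts. Beside that, all 9 epithelium markers were lower in NP than in P once these cows were left out, whereas 8 of 9 were higher in NP on the log2 scale with all cows and 2 of 9 without P617. The part of epithelium in the DNAJC3 and DNAJC16 values was not tested.

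The 8 mitochondrial members (HSPA9, HSPD1, HSPE1, DNAJA3, DNAJC11, DNAJC15, DNAJC19 and DNAJC30) had a median log2 fold change of -0.03, with 3 higher in NP, 5 in P and 0 with a p under 0.05. HSPA9, the mitochondrial HSP70, and HSPD1, the chaperonin HSP60, had nearly the same mean in both groups. HSPA9 was 3528 ± 511 normalized counts in P and 3502 ± 413 in NP (95% interval of the log2 fold change -0.30 to 0.29), and HSPD1 619 ± 115 and 619 ± 122 (-0.38 to 0.38). P617 was the lowest cow for both, with 2545 and 403. HSPE1, the co-chaperonin that closes the HSPD1 ring and shares its promoter region with HSPD1 in mammals, was not lowest in P617 (2025), and its highest value was in NP2810 (2426).

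DNAJC15 and DNAJC19, J-domain proteins of the protein import motor at the inner membrane, were highest in P617. DNAJC15 was 319 normalized counts there, 77.7 to 147 in the other P cows and 101 to 146 in NP cows. DNAJC19 was 119 in P617, 50.8 to 72.6 in the other P cows and 36.7 to 67.8 in NP cows (log2 fold change -0.38, standard error 0.26, and -0.21 without P617).

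The small heat shock proteins had the largest median difference of the compartments, and P617 and P1541 carried much of it. All 4 tested members, HSPB1, HSPB2, HSPB6 and HSPB8, were lower in NP, with a median log2 fold change of -0.53, but only 2 of 4 without P617 and P1541 (median 0.0043). HSPB8, which works with BAG3 to send damaged proteins such as filamin to autophagy, was 7340 normalized counts in P617, 2015 in P904, 6370 in P1541, 2595 in P1631, 3461 in P1753 and 2655 in P2396. The NP cows had 1475 in NP238, 3879 in NP638, 1845 in NP856, 2296 in NP2541 and 1354 in NP2810. P617 and P1541 stood above all others, and the remaining P cows lay within the range of the NP cows. The means were 4073 ± 2225 and 2170 ± 1024, and the log2 fold change was -0.85 with a standard error of 0.38 (limma p = 0.0446, adjusted p = 0.619, exact permutation p = 0.0823). Without P617 it was -0.64 (limma adjusted p = 0.655), without P1541 -0.68 (adjusted p = 0.937) and without both -0.39 (adjusted p = 0.697), each with an unadjusted p above 0.05. Leaving out P1753, NP238, NP856, NP2541 or NP2810 alone also took its p above 0.05.

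HSPB1 (HSP27), which stabilizes actin, was 23310 normalized counts in P617 and 16597 in P1541, 5715 to 8911 in the other P cows and 5100 to 10252 in NP cows. HSPB6 (HSP20), known for its role in smooth muscle relaxation, was 7551 and 5532 in the same cows, 1456 to 2474 in the other P cows and 1159 to 3179 in NP cows. HSPB2, a small heat shock protein of muscle, was 282 and 139, then 61.3 to 87.9 and 55.9 to 82.2. Each of the 3 had a limma p above 0.05 (HSPB1 0.328, HSPB6 0.292, HSPB2 0.137). Without P617 and P1541 the log2 fold changes of HSPB1 and HSPB6 were 0.13 and 0.12.

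The smooth muscle marker list was highest in the same 2 cows as these genes. Its summed level ran from 50282 to 424700 normalized counts in P cows and from 25006 to 175267 in NP cows, with P617, P1541, NP638 and P1753 at the top, which is also the order of HSPB8, HSPB6 and HSPB1 from the highest cow down through P1753. Below P1753 the order differed. NP2810 had a marker sum of 25061.5, near the lowest, but came next after P1753 for HSPB1 (8811) and HSPB6 (2348). HSPB2 shared only the first 2 places, followed by P1631 (87.9) and then P1753 and NP638 (82.5 and 82.2). DES, a defining marker of muscle, was 71427 in P617, 73605 in P1541 and 32599 in NP638, and between 4608 and 26404 in the other cows. Of 10 markers 8 were tested, 7 were higher in P and 1, CASQ2, in NP, where CASQ2 was at 0 in P617 and P1541. With the smooth muscle score as a term in the model, the log2 fold change of HSPB8 was -0.20 (limma adjusted p = 0.9996) and those of HSPB1 and HSPB6 were 0.13 and 0.16. In a further fit that left out NP638 together with P617 and P1541, an alternative added after seeing the data, HSPB8 was at -0.63 (limma adjusted p = 0.342, unadjusted p under 0.05), and in those 8 cows 8 of 8 smooth muscle markers had a p under 0.05, CASQ2 with more in NP. The part of smooth muscle in the group difference was not tested beyond these fits.

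**Figure D4:**
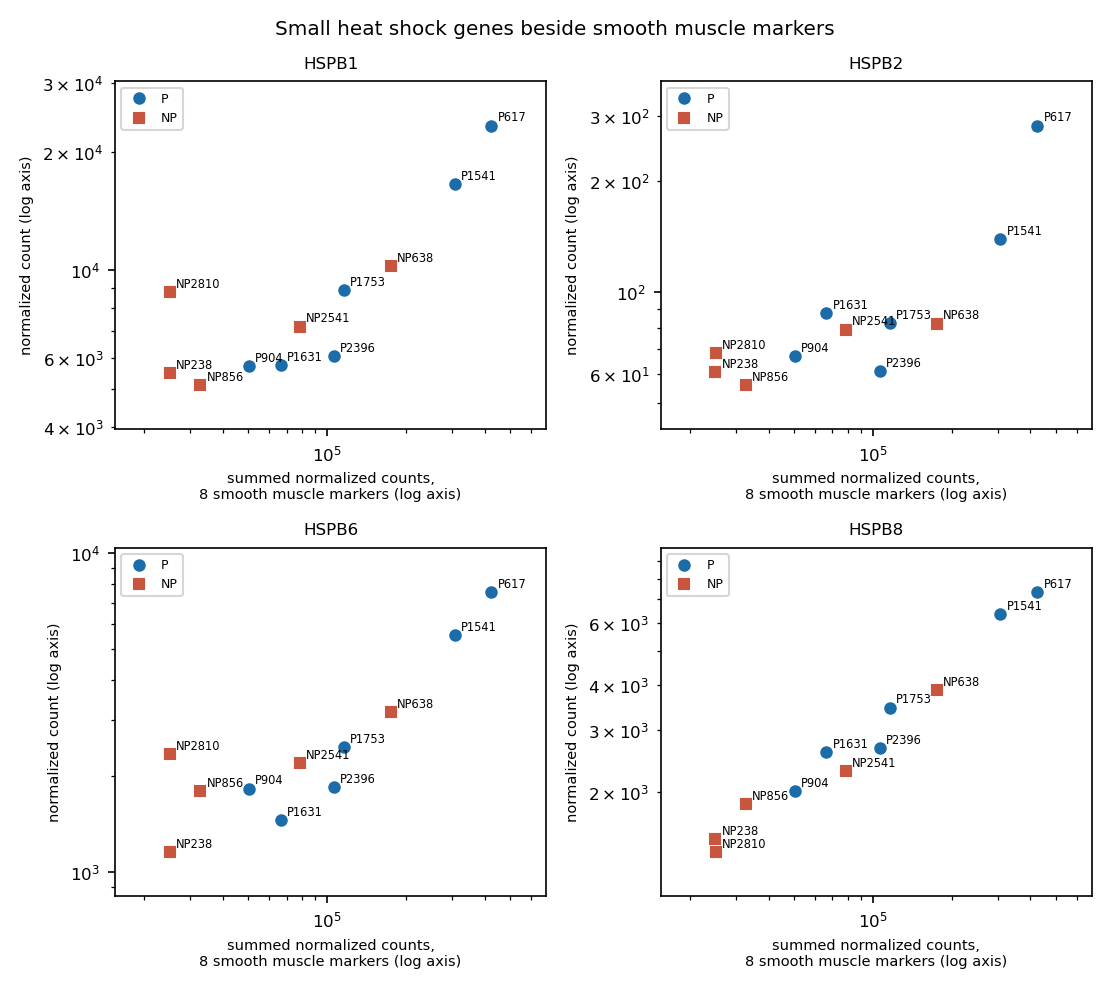
Normalized count of 4 small heat shock genes (vertical, log axis) against the summed normalized counts of 8 smooth muscle markers (horizontal, log axis), 1 point per cow, circles P and squares NP. P617 (424700) and P1541 (306820) lie at the upper right in each panel.

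The 4 members assigned here to vesicles or cilia were DNAJC5 (cysteine string protein of secretory vesicles), DNAJC6 (auxilin, which uncoats clathrin vesicles), DNAJC13 (an endosomal protein) and DNAJB13 (a radial spoke protein of motile cilia and the sperm tail). Their median log2 fold change was 0.28, and -0.13 without P617 and P1541, with 0 at a p under 0.05 in either case. DNAJB13 had the widest range of all members: 6.78 normalized counts in P617, 91.0 in P904, 13.6 in P1541, 143 in P1631, 43.3 in P1753 and 529 in P2396. The NP cows had 101, 49.7, 112, 303 and 89.7. The highest cow had 78.1 times the lowest, both being P cows, and NP2541 came next to P2396. The mean was 138 ± 199 in P and 131 ± 98.8 in NP, while the group difference of 0.94 on the log2 scale had a 95% interval from -1.15 to 3.03 and was -0.27 without P617 and P1541.

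DNAJC6 was likewise highest in P2396 (162 normalized counts) and lowest in P1541 (6.78) and P617 (10.2). Among NP cows, however, it was lowest in NP2541 (25.9) and highest in NP856 (63.5). The summed level of 5 ciliated cell markers had P2396 (5556 normalized counts) and NP2541 (3275) at the top and P1541 (364) and P617 (116) at the bottom, as had DNAJB13. It ranged from 116 to 5556 in P cows and from 942 to 3275 in NP cows, and all 5 of its markers were higher in NP on the log2 scale, 0 of them with a p under 0.05. That sign rested on P617 and P1541, without which 1 of 5 was higher in NP (median log2 fold change -0.56), and with all cows the mean normalized count was higher in P for DNAH5, DNAI1, FOXJ1 and TEKT1. Its part in the values of DNAJB13, HSPA4L and DNAJC6 was not tested. DNAJC5 and DNAJC13 varied less, by 1.87 and 1.67 times from the lowest to the highest cow.

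The 8 remaining tested members were not assigned to a compartment: DNAJC4, DNAJC18, DNAJC22, DNAJC25, DNAJC27, HSPA12A, HSPA12B and HSPB11. HSPA12B, a distant HSP70 relative known from endothelial cells and vessel growth, had the smallest p of all members. It was 428 normalized counts in P617, 648 in P904, 426 in P1541, 355 in P1631, 466 in P1753 and 255 in P2396. The NP cows had 552 in NP238, 717 in NP638, 580 in NP856, 803 in NP2541 and 888 in NP2810. All NP cows were above all P cows but P904, which exceeded NP238 and NP856. The means were 430 ± 130 and 708 ± 143, a difference of 0.75 on the log2 scale with a standard error of 0.22 (limma p = 0.00505, adjusted p = 0.364, exact permutation p = 0.0108). It did not pass the adjusted threshold.

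The p of HSPA12B stayed under 0.05 when any 1 cow was left out, with log2 fold changes from 0.61 to 0.88, and it was 0.0116 without P617 and P1541. P904 was the only P cow that overlapped the NP cows, so leaving it out removed the overlap by construction. In that fit 3.23% of all genes tested did not overlap. The adjusted p of HSPA12B was 0.0911 there, and 171 of 15081 genes (1.13%) passed 0.1. Of the endothelium markers, 7 of 7 were also higher in NP, 6 with a p under 0.05. Their summed level was 3736 to 12828 normalized counts in P cows and 7640 to 13862 in NP cows. P904 had the highest sum among P cows, and NP238 (7640) the lowest among NP cows. The order of cows was not the same throughout. NP856 had a sum of 12904 but an HSPA12B count of 580, below P904. P617 had the lowest sum (3736) but an HSPA12B count of 428, above P2396 (255). With the endothelium score as a term, an alternative added after seeing the data, the log2 fold change of HSPA12B was 0.35 with a standard error of 0.27 (limma adjusted p = 0.9997). In that fit HSPA1A was the only member with an unadjusted p under 0.05 (log2 fold change 0.82, limma adjusted p = 0.9997). The part of endothelium in the HSPA12B difference was not tested beyond that fit.

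HSPA12A, its close relative, was 10.1 to 30.6 normalized counts in P and 10.2 to 35.5 in NP (log2 fold change 0.45, standard error 0.39). DNAJC22 was 2.26 normalized counts in P617, which rests on very few reads, 52.3 to 105 in the other P cows and 32.4 to 135 in NP cows, where NP2810 was highest. Its highest cow had 59.6 times its lowest. The other unassigned members, DNAJC4, DNAJC18, DNAJC25, DNAJC27 and HSPB11, had limma p-values from 0.205 to 0.998.

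**Figure D5:**
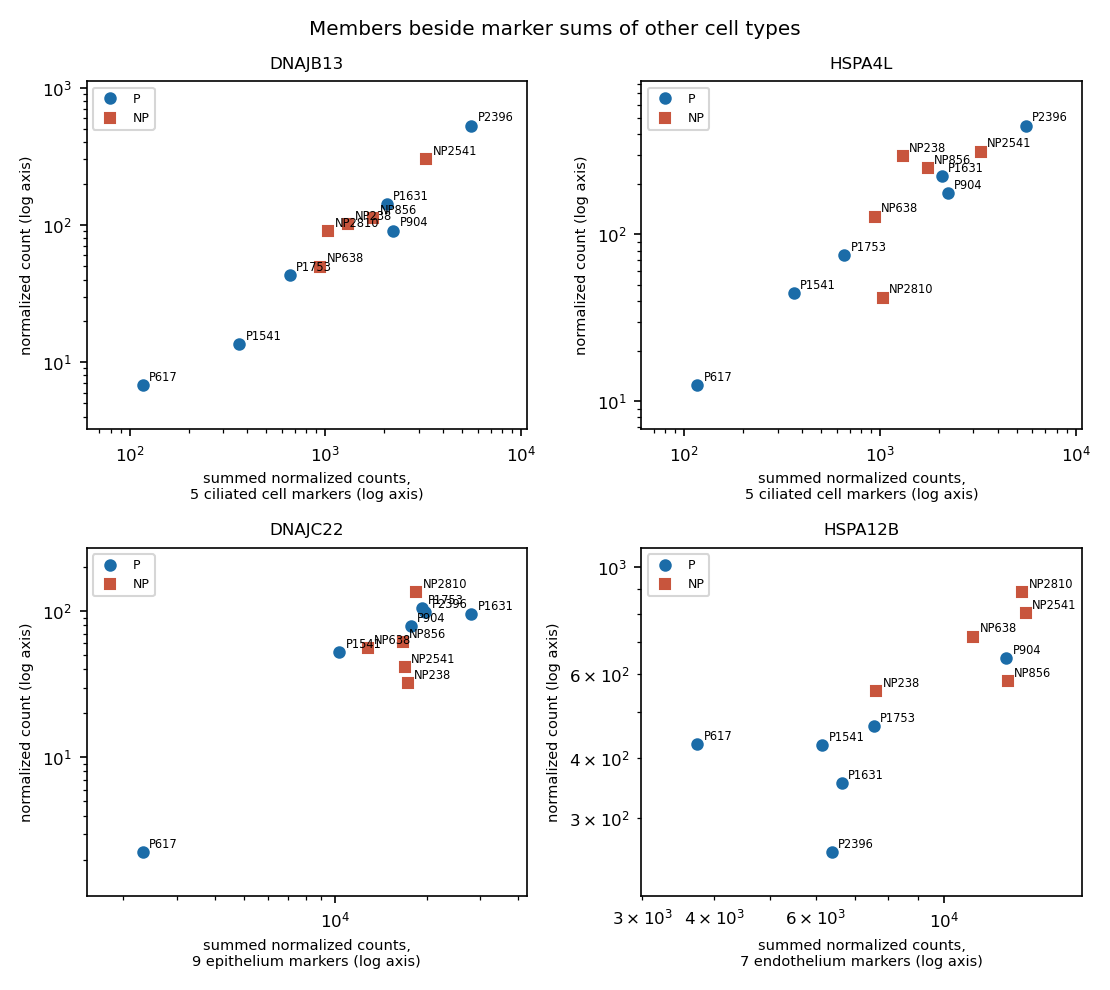
Normalized count of DNAJB13, HSPA4L, DNAJC22 and HSPA12B (vertical, log axis) against the summed normalized counts of a marker list (horizontal, log axis), 1 point per cow, circles P and squares NP. P617 has the lowest marker sum in each panel and the lowest count of all cows for DNAJB13 (6.78), HSPA4L (12.4) and DNAJC22 (2.26), while HSPA12B is lowest in P2396 (255).

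Other genes of the chaperone system were read from lists drawn up from general knowledge. Among co-chaperones, which set the pace and the fate of HSP70 and HSP90 cycles, 20 of 21 were tested, 3 were higher in NP and 17 in P (16 with another scaling, and 12 without P617 and P1541), and 1 had a p under 0.05. That gene was BAG3, a nucleotide exchange factor of HSP70 that binds HSPB8. It was 1333, 1723, 1403, 1290, 1156 and 1160 normalized counts in P617, P904, P1541, P1631, P1753 and P2396, and 2759, 1339, 1938, 1568 and 2757 in NP238, NP638, NP856, NP2541 and NP2810. NP238, NP2810 and NP856 stood above all P cows, whereas for HSPH1 and HSPA8 only NP238 and NP2810 did. The log2 fold change was 0.58 with a standard error of 0.20 (limma p = 0.0141, adjusted p = 0.473, exact permutation p = 0.0238). Its p stayed under 0.05 when any 1 cow was left out but not with the smooth muscle or the endothelium score as a term. Its direction was opposite to that of its partner HSPB8.

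The chaperonin TRiC folds actin and tubulin. Of its 8 subunits 7 were tested, and all 7 were lower in NP than in P, also under another scaling and without P617 and P1541 (median log2 fold change -0.21, and -0.12 without these cows). CCT3 alone had a p under 0.05 at 4533 ± 1058 normalized counts in P and 3495 ± 214 in NP (log2 fold change -0.35, standard error 0.16, limma p = 0.0479, adjusted p = 0.634, exact permutation p = 0.0519). Its highest values were in P1541 (5823) and P617 (5821). Its p was above 0.05 with another scaling, with no filter on low values, with either marker score as a term, without any single NP cow and without P617, P1541 or P1753. The heat shock factors HSF1, HSF2 and HSF4 and the factor-binding protein HSBP1 had a median log2 fold change of -0.18, all 4 below 0 and 0 with a p under 0.05, but only 2 of 4 were below 0 without P617 and P1541. The value of HSF4 was above 0 without NP2810, with an unadjusted p under 0.05, and its mean normalized count was higher in NP (376) than in P (349).

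Of 19 genes of the unfolded protein response, 3 were higher in NP and 16 in P (15 with another scaling, 17 without P617 and P1541), with a median log2 fold change of -0.08. XBP1, the transcription factor that raises ER chaperones, was the only one with a p under 0.05. It ranged from 6241 to 9802 normalized counts in P cows and from 4929 to 6307 in NP cows, and among NP cows NP2810 alone reached the P range. The log2 fold change was -0.41 with a standard error of 0.14 (limma p = 0.0153, adjusted p = 0.483, exact permutation p = 0.00649). Its p stayed under 0.05 when any 1 cow was left out and without P617 and P1541, and was 0.0988 with the endothelium score as a term.

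Immediate early genes respond within minutes to handling and other stimuli. They were listed because they could reflect how the tissue was taken, which was not tested. Of 11, 8 were higher in NP, and DUSP1, a phosphatase of stress kinases, had a p under 0.05. Without P617, and also without P617 and P1541, 10 of 11 were higher in NP, and FOS and JUN had a p under 0.05 besides DUSP1. With all cows DUSP1 was 926 ± 252 normalized counts in P and 1543 ± 325 in NP (log2 fold change 0.75, standard error 0.20, limma p = 0.0024, adjusted p = 0.32, exact permutation p = 0.00649). P617 had by far the highest FOS (3282 normalized counts, against 57.8 to 745 in the other cows) and EGR1 (6085, against 127 to 951). P617 was the highest cow for DNAJB1 and the second for HSPA1A, but the lowest for HSPH1. NP238 had the third highest summed level of this list and NP2810 the fifth. The part of this list in the values of the heat-inducible members was not tested.

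Leukocyte and stroma markers were also higher in most NP cows, and their part in the member values was not tested. All 8 leukocyte markers were higher in NP, 5 with a p under 0.05 (2 without P617 and P1541), with sums of 474 to 1178 normalized counts in P cows and 820 to 1675 in NP cows. Of 8 stroma markers 7 were higher in NP and 2 had a p under 0.05, but all 8 were higher in NP with a p under 0.05 without P617 and P1541 (median log2 fold change 0.93 against 0.52 with all cows). Their sums ranged from 117409 to 357068 normalized counts in P cows and from 243526 to 337429 in NP cows, and DCN did not overlap between the groups.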

How the data were processed

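Total RNA was extracted from each biopsy, and its polyA-selected mRNA was sequenced as paired-end TruSeq libraries, 1 per cow, on an Illumina HiScanSQ. Per the labels and the study's methods, CASAVA 1.8.2 made the reads, which the authors cleaned, mapped with Bowtie2 2.1.0 to the bovine UMD3.1 assembly, summed by gene with HTSeq 0.5.4p2 and scaled per cow with DESeq2 1.12.1 size factors. The gene annotation and the use of strand are not given in the sources used here, so overlapping and near-identical genes are uncertain. What the authors deposited is a matrix of these scaled counts, used here as a signal without further scaling. Values step by the worth of a single read in each cow (within 0.01 reads), so genes near a mean of 5 carry counting error on top of the spread among cows.

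Groups come from the labels, which name no batch, and each cow was a replicate. Genes averaging 5 or more (15081) were compared on log2(value + 1) with limma 3.58.1 under R 4.3.3 (moderated test, prior variance allowed to vary with the mean, two-sided), and p-values were adjusted over all of them by Benjamini and Hochberg, with a threshold of 0.1. The pseudocount of 1 understates the change of low genes. Single genes were also given a two-sided exact permutation test that takes in all 462 ways to divide the cows 6 to 5 and can reach 0.00216 at the lowest. The procedure was tested on simulated counts, which had the same dispersion for every gene and no tissue differences between cows. That test does not show how the procedure performs on these biopsies. Tables and figures used Python 3.11.15, pandas 2.3.3, scipy 1.17.1 and matplotlib 3.10.9.

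The members, compartments and lists were chosen with earlier results of these data known. Named genes are a fixed set of core chaperones, the members with the largest absolute fold change and the widest range in each compartment, and every member or pathway gene with an unadjusted p under 0.05 or no overlap. DNAJA1, FOS, EGR1 and the marker genes named beside a result were chosen after their values were seen. Levels per length and sequence features were planned but not computed, because transcript lengths and sequences were not used here, and levels are not compared between genes. A list of 3 erythrocyte markers matched 0 rows. Alternatives were another scaling, other filters and pseudocounts, marker scores as terms and leaving out cows.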

Additional observations from a re-analysis of the deposited data

Results flagged for a closer look

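Within the groups of 5 or 6 cows, 64 groups of values (32 named genes) were searched for a cow whose gap to its nearest neighbour was above Dixon's 95% critical value, and 12 were found. Chance gives about 1 in 20, but many of these genes were named for their wide range or large fold change, so the number is not read against it. P617 accounts for 5 of them. It was high among P cows for DNAJC15 (319 normalized counts, others 77.7 to 147), DNAJC19 (119, others 50.8 to 72.6) and HSPB2 (282, others 61.3 to 139). It was low for HSPA9 (2545, others 3506 to 3947) and HSPD1 (403, others 622 to 733). P2396 was high for DNAJB13 (529, others 6.78 to 143) and DNAJC6 (162, others 6.78 to 45.3), the cow with the highest sum of ciliated cell markers. Among NP cows, NP2541 was high for DNAJB13 (303, others 49.7 to 112), NP856 for DNAJC6 (63.5, others 25.9 to 34.5), NP638 for DNAJC15 (146, others 101 to 108), and NP2810 for DNAJC22 (135, others 32.4 to 61.3) and HSPE1 (2426, others 1448 to 1577).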

How the results depend on the processing

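Of the alternatives, trimmed-mean (TMM) scaling, pseudocounts of 0.5 and 5, no filter on low values and a mean of at least 50 left the counts of members at 0 with an adjusted p under 0.1, 2 with an unadjusted p under 0.05 and 0 without overlap. TMM scaling changed the sign split of the members from 27 higher in NP and 34 in P to 30 and 31, and turned HSPA9 to 0.0082. Leaving out each cow gave 0 to 1 member with an adjusted p under 0.1, 1 to 5 with an unadjusted p under 0.05 and 0 to 1 without overlap. The 1 adjusted call and the 1 member without overlap were both HSPA12B without P904. In that fit 1.13% of all genes passed and 3.23% did not overlap. The 5 came without NP638 (DNAJB5, HSPA12B, HSPA6, HSPB8 and HSPH1), where 8.49% of all genes had an unadjusted p under 0.05. Among the 32 named genes, the log2 fold changes that turned sign over these fits ranged from -0.034 to 0.098 for DNAJB1, -0.36 to 0.045 for DNAJC15, -0.15 to 0.30 for DNAJC16, -0.53 to 0.48 for DNAJC22, -0.17 to 0.018 for HSPA5, -0.039 to 0.23 for HSPA8, -0.095 to 0.047 for HSPA9 and -0.12 to 0.10 for HSPD1.

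Without P617 and P1541, 4 members had an unadjusted p under 0.05 (DNAJB4, DNAJC16, DNAJC3 and HSPA12B, against 11.1% of all genes) and 1 did not overlap (DNAJC16, against 3.66%). In that fit the named genes with a log2 fold change of the opposite sign were DNAJB13 -0.27, DNAJC15 0.13, DNAJC16 -0.31, DNAJC22 -0.69, DNAJC6 -0.39, HSP90AB1 0.052 and 0.022 for its rows, HSPA4L -0.21, HSPA5 0.00044, HSPB1 0.13, HSPB6 0.12, HSPD1 -0.13 and HSPE1 0.025. Without NP638 as well, 3 had a p under 0.05 (against 10.2% of all genes) and 1 did not overlap (against 5.03%), and the named genes of opposite sign were DNAJC15 0.034, DNAJC16 -0.23, DNAJC22 -0.68, DNAJC6 -0.38, HSP90AA1 0.039, HSP90AB1 0.092 and 0.025, HSPA4L -0.12, HSPA5 0.094, HSPB1 0.0010, HSPD1 -0.036 and HSPE1 0.073. With the smooth muscle score as a term they were DNAJC15 0.18, DNAJC16 -0.26, DNAJC22 -0.56, DNAJC6 -0.043, HSPA8 -0.12, HSPB1 0.13, HSPB6 0.16 and HSPD1 -0.22. With the endothelium score as a term 1 member, HSPA1A, had a p under 0.05 (against 3.71% of all genes), and they were DNAJB13 -0.37, DNAJC15 0.34, DNAJC16 -0.49, DNAJC19 0.10, DNAJC22 -1.68, DNAJC6 -0.023, HSP90AA1 0.042, HSP90AB1 0.15 for both rows, HSPA4L -0.18, HSPB1 0.26, HSPB2 0.13, HSPB6 0.094 and HSPD1 -0.13. The cause was not tested. Among these named genes, DNAJC16 without P617 and P1541 is the only value of opposite sign that had a p under 0.05. The endothelium term and the fit without NP638 as well were chosen after seeing the data.

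The planned count tests (edgeR with either scaling, and DESeq2) were not run, because the deposited normalized counts were used as a signal. No paired analysis was possible because the replicate numbers are the numbers of single cows and the groups share none. With 6 and 5 cows, a difference was not detectable for the members with the widest intervals, such as DNAJB13, HSPA4L and DNAJC22. Genes with few reads, such as HSPA6 and HSPA12A, also carry counting error.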
